A study of Mus musculus with 14 samples.

Results

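A set of 8 genes that encode transcription factors of mouse embryonic stem cells (ESCs) were followed by their symbols, Pou5f1 (OCT4), Sox2, Sall4, Utf1, Zfp281, Tcf7l1, Tcf3 and Rest, across an RNA-seq table of 8 samples and a TRIM71 pulldown table. All 8 members were found in both tables, among 41204 genes of the first and 14054 transcripts of the second, and all 8 were among the 15430 genes that passed the filter on low values (a mean above 0.2 FPKM, fragments per kilobase of transcript relative to library size). Tcf3 here is the E protein gene E2A (ENSMUSG00000020167), and Tcf7l1 (ENSMUSG00000055799), which older texts also call Tcf3, is a separate gene.

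The study is about Trincr1 (Gm2694), a long intergenic noncoding RNA bound by the RNA-binding protein TRIM71. It asked how Trincr1 acts on FGF/ERK signaling (fibroblast growth factor through the kinase ERK) and on the self-renewal of ESCs. Wild-type (WT) and Trincr1-ko ESCs from a C57BL/6(F) x 129/sv(M) cross were each sequenced in 2iL and in PDL, giving 4 groups of 2 biological replicates. 2iL is N2B27 medium with 1 µM of the MEK inhibitor PD0325901, 3 µM of the GSK3 inhibitor CHIR99021 and 1000 unit/ml of leukemia inhibitory factor (LIF). PDL cells spent 24 h in 2iL and then 4 days without CHIR99021, so all 8 samples had the MEK inhibitor and LIF, and the medium comparison also holds a difference in culture history. In Trincr1-ko cells exons 2 to 4 of the gene had been cut out with a pair of guide RNAs, and which knockout clone was sequenced is not stated in the sources used here. For the pulldown, ESCs in 2iL that overexpressed FLAG-tagged TRIM71 were UV-crosslinked, and RNA brought down with a FLAG antibody was set against input RNA.

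OCT4 and SOX2 bind DNA as a pair at composite elements and keep ESCs pluripotent, and the amount of OCT4 is known to be critical, since both too much and too little make ESCs differentiate. TCF7L1 is the LEF/TCF factor that represses pluripotency genes in ESCs, and GSK3 inhibition is known to relieve that repression through β-catenin. SALL4 and ZFP281 recruit the NuRD corepressor, UTF1 is a chromatin-associated factor of undifferentiated cells, REST silences neuronal genes in non-neuronal cells, and TCF3 (E2A) is an E protein that the ID proteins hold away from DNA.

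Promoters are shown for the members that both differed between genotypes in PDL, as given further on, and have an entry in the RefSeq promoter table (GRCm38.p6), which gave 300 bases a start site for 6 of the 8 members. Capitals mark the GC box, GGGCGG on either strand, the motif that the printed promoters share. The Pou5f1 window is chr17:35505782-35506081 on the plus strand, the Sox2 window chr3:34649745-34650044 on the plus strand and the Tcf7l1 window chr6:72788996-72789295 on the minus strand.
Pou5f1: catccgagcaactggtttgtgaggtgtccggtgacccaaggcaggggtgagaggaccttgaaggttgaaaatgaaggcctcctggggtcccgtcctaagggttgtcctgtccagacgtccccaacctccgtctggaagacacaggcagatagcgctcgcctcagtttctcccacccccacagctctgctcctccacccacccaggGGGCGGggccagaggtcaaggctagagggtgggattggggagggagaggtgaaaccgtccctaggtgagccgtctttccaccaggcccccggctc
Sox2: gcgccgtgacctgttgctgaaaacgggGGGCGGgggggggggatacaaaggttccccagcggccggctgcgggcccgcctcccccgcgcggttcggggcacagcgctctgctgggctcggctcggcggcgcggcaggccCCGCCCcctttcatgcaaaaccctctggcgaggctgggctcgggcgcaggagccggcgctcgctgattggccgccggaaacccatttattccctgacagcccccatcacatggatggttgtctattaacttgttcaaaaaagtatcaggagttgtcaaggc
Tcf7l1: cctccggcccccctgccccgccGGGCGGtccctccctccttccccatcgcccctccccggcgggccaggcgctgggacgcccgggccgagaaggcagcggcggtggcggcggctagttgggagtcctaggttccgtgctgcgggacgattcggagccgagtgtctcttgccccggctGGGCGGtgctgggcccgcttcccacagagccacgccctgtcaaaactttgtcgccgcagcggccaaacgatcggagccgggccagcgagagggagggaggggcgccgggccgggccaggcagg
The Pou5f1 window holds 1 GC box and the Sox2 and Tcf7l1 windows hold 2 each. Utf1 has 4 GC boxes (2 of them overlapping), Zfp281 4 and Tcf3 3, whereas a second, downstream Pou5f1 entry has none. Of all 32851 promoters of this length 35.7% hold a GC box, and of the 8249 promoters of genes with a mean of at least 5 FPKM 66.1% do. The GC content of the 6 windows is between 61.7% and 75.3%, against a median of 61.3% for those expressed genes. That of the second Pou5f1 entry, which is not among the 6, is 45.7%. The octamer ATGCAAAT, the element that POU factors such as OCT4 bind, is in none of the windows and in 1.74% of all promoters. The Sox2 window holds the shorter ATGCAAA once, which 4.63% of promoters hold. CTTTGTN, a core shared by LEF/TCF and SOX factors, is found once each in the Sox2, Tcf7l1 and Tcf3 windows and in 18.7% of all promoters. CTTTGAN, the LEF/TCF core, is in none of them and in 16.0% of all promoters.

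The levels ranked the members in much the same order in every group. Pou5f1 was the highest, at rank 133 of 15430 by its mean over the 8 samples, followed by Sox2 at 483 and Utf1 at 991. Sall4 and Tcf3 stood at 1257 and 1307, Tcf7l1 at 1878, Rest at 2372 and Zfp281, the lowest, at 4135. In WT 2iL cells the means ran from 705 FPKM for Pou5f1 through 146 for Sox2, 92.5 for Utf1, 63.5 for Tcf3, 56.1 for Sall4, 43.5 for Tcf7l1 and 36.9 for Rest to 20.5 for Zfp281. Sall4 and Tcf3 overlapped in Trincr1-ko 2iL cells, and Utf1, Tcf3 and Sall4 overlapped in WT PDL cells. In Trincr1-ko PDL cells Sall4, at 83.8 FPKM, stood above both Utf1 and Tcf3, which overlapped. Tcf7l1 lay above Rest in 3 groups and below it in WT PDL cells, where Rest was 43.7 and 45.3 FPKM and Tcf7l1 39.5 and 40.4.

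**Figure D1:**
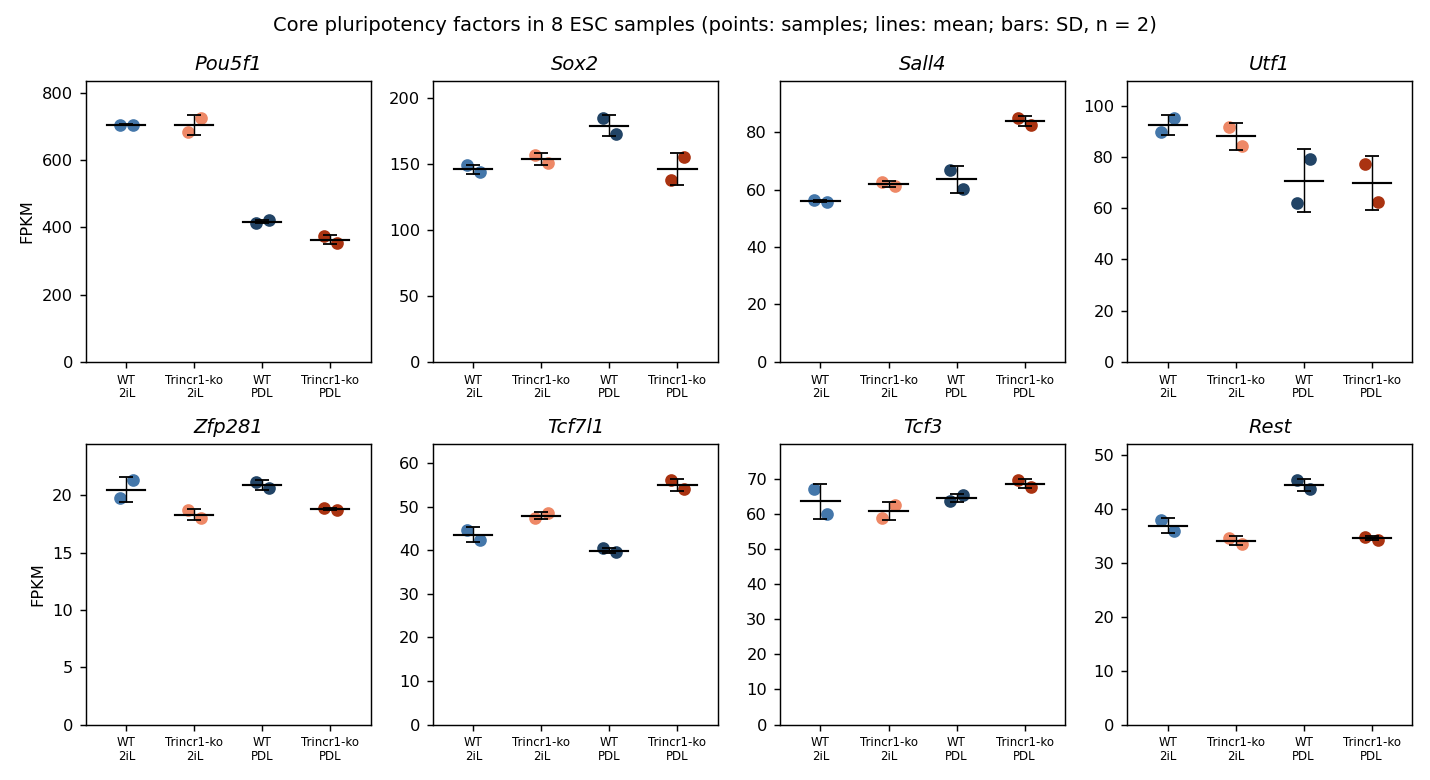
Level of each core factor in FPKM (vertical axis, from 0) in the 4 groups (horizontal axis), with 1 point a sample, the mean as a line and the SD as a bar (n = 2). Pou5f1 lies between 684 and 726 in the 2iL samples and between 354 and 420 in the PDL samples, and Sall4 and Tcf7l1 are highest in Trincr1-ko PDL cells.

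The library sizes are not in the table, but the steps of low values gave an estimate of 10000000 to 13400000 fragments a sample, at which the members had between 817 (Utf1) and 9380 (Pou5f1) fragments and a counting error of at most 3.5%. The deletion was visible in the targeted gene, at 5.7 to 9.45 FPKM in the 4 WT samples, 0 and 0.0754 in Trincr1-ko 2iL cells and 0.746 and 1.38 in Trincr1-ko PDL cells. The residual signal in Trincr1-ko cells was thus higher in PDL than in 2iL (means of 1.06 and 0.0377 FPKM), and its source was not tested. Of 5 other ESC markers (Nanog, Zfp42, Dppa5a, Esrrb and Tdgf1), the lowest value in any sample was 68.5 FPKM, for Esrrb in Trincr1-ko PDL cells. ESC transcripts were thus present in every sample, which does not show that ESC identity was equal between the groups. These are bulk samples, in which fewer cells of a type and less RNA per cell cannot be told apart.

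With the GSK3 inhibitor present, the largest log2 difference of any core factor between Trincr1-ko and WT cells was 0.15 in size. None of the 8 members passed the test (limma on log2(FPKM + 1), Benjamini-Hochberg adjusted p of 0.05 over all genes tested), where 1.21% of all genes did, and 3 had an unadjusted p under 0.05, as did 14.6% of all genes tested. Pou5f1 was 704 and 705 FPKM in WT and 684 and 726 FPKM in Trincr1-ko cells, a log2 difference of 0.00 with a 95% interval from -0.10 to 0.10. The Sox2 samples, at 144 and 149 in WT and 150.4 and 157 FPKM in Trincr1-ko cells, did not overlap, but the log2 difference of 0.07 ± 0.06 (SE, n = 2 a group) had an adjusted p of 0.70. The 3 with a low unadjusted p were Sall4 (55.8 and 56.3 against 61.3 and 62.6 FPKM), Tcf7l1 (42.3 and 44.7 against 47.4 and 48.5 FPKM) and Zfp281 (19.8 and 21.3 against 18.0 and 18.7 FPKM). Sall4 and Tcf7l1 lay 0.14 higher and Zfp281 0.15 lower on the log2 scale in Trincr1-ko cells, with adjusted p-values of 0.303, 0.264 and 0.312. The widest interval, from -0.38 to 0.24, was that of Utf1.

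Without the GSK3 inhibitor, 5 of the 8 core factors differed between Trincr1-ko and WT cells, where 12.1% of all genes tested did, and they did so in both directions. Sall4 and Tcf7l1 were higher in Trincr1-ko cells (6.29% of all genes were called higher), and Pou5f1, Sox2 and Rest were lower (5.77% of all genes were called lower). The means differed by at most 1.38-fold. The background reaches down to genes with a mean of 0.2 FPKM, while the lowest member, Zfp281, had a mean of 19.6 FPKM. The members were also chosen with earlier results of these data known, so their count cannot be read as an excess. The median log2 difference of the 8 members, -0.08, stood beside 0.01 over all genes tested.

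Tcf7l1, the repressor of pluripotency genes, had the largest difference of the members. Its level was 39.5 and 40.4 FPKM in WT and 54.1 and 56.0 FPKM in Trincr1-ko cells. The ratio of the means was 1.38 and the log2 difference 0.45 ± 0.05 (SE, n = 2 a group), with an adjusted p of 0.0037 in limma. Sall4, a zinc finger factor that shares many genomic targets with OCT4, was 60.4 and 66.9 FPKM in WT and 82.6 and 85.1 FPKM in Trincr1-ko cells. Its means differed 1.32-fold, a log2 difference of 0.39 ± 0.06 with a limma adjusted p of 0.00811. For both genes, each Trincr1-ko sample lay above each WT sample of the same medium, and above every 2iL sample too.

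Among the members that fell, the neuronal repressor gene Rest was 43.7 and 45.3 FPKM in WT and 34.3 and 34.8 FPKM in Trincr1-ko cells. This was 22.3% less, a log2 difference of -0.36 ± 0.05 with a limma adjusted p of 0.00848. Sox2 was 173 and 185 FPKM in WT and 138 and 155 FPKM in Trincr1-ko cells, 18.4% less (log2 difference -0.29 ± 0.06, limma adjusted p = 0.0286). Pou5f1 was 413 and 420.4 FPKM in WT and 354 and 373 FPKM in Trincr1-ko cells, 12.8% less (log2 difference -0.20 ± 0.04, limma adjusted p = 0.0279). The samples of the 2 genotypes did not overlap for any of the 3 genes. That alone says little, for these genes as for Tcf7l1 and Sall4. Sox2, Rest, Tcf7l1 and Sall4 did not overlap between genotypes in 2iL either, where none passed. The share of all genes without overlap was not counted.

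The remaining members did not pass the test. Zfp281 was 20.6 and 21.2 in WT and 18.7 and 18.9 FPKM in Trincr1-ko cells, and its log2 difference of -0.15 was as large as in 2iL (adjusted p = 0.174). Tcf3 was 63.5 and 65.2 in WT and 67.6 and 69.5 FPKM in Trincr1-ko cells (log2 difference 0.09, adjusted p = 0.393). The Utf1 samples overlapped, at 62.1 and 79.3 in WT and 62.3 and 77.4 FPKM in Trincr1-ko cells, and the interval of its log2 difference ran from -0.33 to 0.30.

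Tcf7l1 passed the test in all 16 alternative settings tried, Sall4 in 14, Rest in 13, Sox2 in 7 and Pou5f1 in 6, and the sign of these 5 differences held in all 16. Pou5f1 lost its call without any 1 of the WT 2iL, WT PDL or Trincr1-ko PDL samples (adjusted p of 0.0541 to 0.122). Sox2 lost it without WT 2iL replicate 1 or 2 (0.0537 and 0.0538), WT PDL replicate 1 or 2 (0.143 and 0.0732) or Trincr1-ko PDL replicate 1 (0.132). Without the last of these Sall4 was at 0.0641 and Rest at 0.0574, and without WT PDL replicate 1 Rest was at 0.0556. When only the 4 PDL samples were fitted, 1 member, Tcf7l1, passed.

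The effect of the deletion in PDL was also compared with its effect in 2iL (the interaction of genotype and medium). No member passed (1.81% of all genes tested did), and 5 of 8 had an unadjusted p under 0.05, as did 19.0% of all genes tested. The smallest adjusted p was that of Tcf7l1, 0.0754, for an effect 0.32 ± 0.07 larger in PDL on the log2 scale. Sox2 followed with -0.36 ± 0.09 and an adjusted p of 0.0926, and Rest, Pou5f1 and Sall4 had adjusted p-values of 0.141 to 0.153. A difference in the effect of genotype between 2iL and PDL was thus not shown for any member at this threshold.

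**Figure D2:**
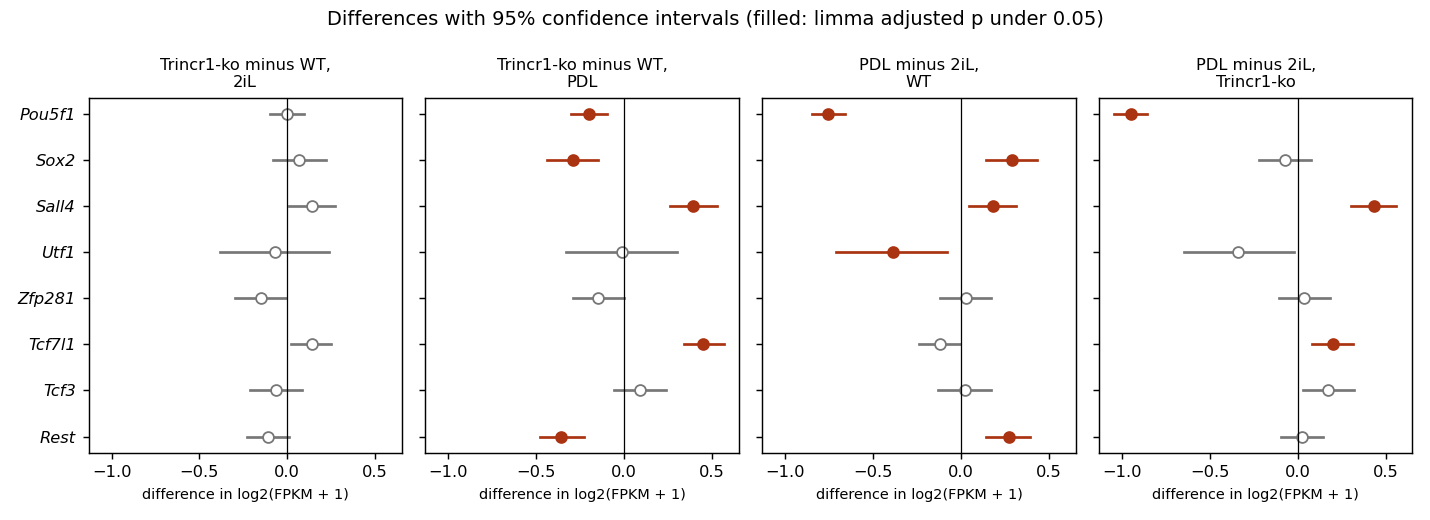
Difference in log2(FPKM + 1) (horizontal axis) for each core factor (vertical axis) in 4 comparisons, with 95% confidence intervals and filled points for a limma adjusted p under 0.05. In PDL, Sall4 (0.39) and Tcf7l1 (0.45) lie to the right of 0 and Pou5f1 (-0.20), Sox2 (-0.29) and Rest (-0.36) to the left, and the largest differences are those of Pou5f1 between media (-0.76 and -0.95).

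Markers of ESCs and of other cells were compared between the genotypes in PDL in the same fit, where 12.1% of all genes tested were called. The summed level of the 5 ESC markers was 2212 to 2527 FPKM in WT and 1323 to 1549 FPKM in Trincr1-ko PDL cells, and most of that sum was Dppa5a, with means of 1753 and 922 FPKM. Dppa5a, Nanog and Esrrb were called lower, while Zfp42 (153 and 140 FPKM) and Tdgf1 (132 and 141 FPKM) did not pass. Among the markers of other cells 3 genes passed, all higher in Trincr1-ko PDL cells: Col1a1, 1 of 3 fibroblast markers tested (log2 difference 1.03), Sox1, 1 of 4 neural markers tested (0.81), and Foxa2, 1 of 4 mesendoderm markers tested (0.90). Levels were low for Col1a1 (means of 0.409 FPKM in WT and 1.89 FPKM in Trincr1-ko PDL cells) and for Foxa2 (0.436 and 1.68 FPKM). Col1a1 passed in all 15 alternatives in which it was tested, Dppa5a in 15 of 16, Sox1 in 13 of 16 and Foxa2 in 9 of 15. None of the 2 primitive endoderm or 4 trophoblast markers tested passed. The 7 fibroblast markers summed to 4.14 to 4.59 FPKM in WT and 5.56 to 6.4 in Trincr1-ko PDL cells, with 3 and 1 of them at 0 in both samples. Thy1 was the largest part of that sum, with means of 3.38 FPKM in WT and 3.05 FPKM in Trincr1-ko PDL cells, and did not pass. The 5 neural markers summed to 32.8 to 36.8 and 41.4 to 42.2 FPKM, and the 5 mesendoderm markers to 4.14 to 4.33 and 4.5 to 4.55 FPKM, with none at 0 in both samples. The sums of the 5 primitive endoderm markers (2.35 to 2.88 FPKM in WT and 2.76 to 3.68 FPKM in Trincr1-ko PDL cells) and of the 5 trophoblast markers overlapped between genotypes (5.25 to 5.34 and 4.94 to 5.75 FPKM). The part of these markers in the differences of the core factors was not tested.

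In WT cells, Pou5f1 and Utf1 were lower in PDL than in 2iL, and Sox2, Sall4 and Rest were higher. These 5 of 8 members passed the test, where 52.2% of all genes did (30.9% higher and 21.3% lower), so the share of members called was near that of genes in general. Of all calls 59.2% were higher in PDL, and 49.1% after quantile scaling. Pou5f1 went from 704 and 705 FPKM in 2iL to 413 and 420.4 FPKM in PDL, 40.8% less, a log2 difference of -0.76 ± 0.04 (SE, n = 2 a group, limma adjusted p = 1.68e-05). Utf1, whose enhancer is a known OCT4-SOX2 target, went from 89.7 and 95.3 to 62.1 and 79.3 FPKM (log2 difference -0.39 ± 0.13, limma adjusted p = 0.0413). Of the 4 other OCT4-SOX2 targets listed further on, 1 was higher in PDL, 1 was lower and 2 did not pass. Their median log2 difference was 0.062, against 0.076 over all genes tested.

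The members that rose did so by less. Sox2 went from 144 and 149 to 173 and 185 FPKM, a log2 difference of 0.29 ± 0.06 (limma adjusted p = 0.00696). Rest went from 35.9 and 37.9 to 43.7 and 45.3 FPKM (0.27 ± 0.05, limma adjusted p = 0.00412), and Sall4 from 55.8 and 56.3 to 60.4 and 66.9 FPKM (0.18 ± 0.06, limma adjusted p = 0.0312). Pou5f1 and Rest passed in all 16 alternatives, Sox2 in 15 (adjusted p = 0.0509 without WT PDL replicate 1), Sall4 in 10 and Utf1 in 6. Sall4 was at 0.0912 and 0.112 without WT 2iL replicate 1 or 2 and at 0.139 without WT PDL replicate 1, and Utf1 at 0.0989, 0.168 and 0.231 without those same samples and at 0.0629 without either Trincr1-ko 2iL sample. Without WT PDL replicate 1 the log2 differences also shrank, to 0.11 for Sall4 and -0.22 for Utf1.

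In Trincr1-ko cells 3 of 8 members differed between the media, where 50.0% of all genes tested did (29.6% higher and 20.3% lower). Pou5f1 fell from 684 and 726 to 354 and 373 FPKM (log2 difference -0.95 ± 0.04, limma adjusted p = 5.56e-06). Sall4 rose from 61.3 and 62.6 to 82.6 and 85.1 FPKM (0.43 ± 0.06, limma adjusted p = 0.000657), and Tcf7l1 from 47.4 and 48.5 to 54.1 and 56.0 FPKM (0.20 ± 0.05, limma adjusted p = 0.0137). Tcf7l1 had a log2 difference of -0.12 in WT cells, which did not pass (adjusted p = 0.0788). Sox2, at 150.4 and 157 against 138 and 155 FPKM, and Rest, at 33.5 and 34.6 against 34.3 and 34.8 FPKM, overlapped between the media in these cells, with log2 differences of -0.07 and 0.02. Tcf3 had an adjusted p of 0.0522 and Utf1 one of 0.0713. Tcf7l1 was at 0.0615 without Trincr1-ko 2iL replicate 1 and at 0.0698 without Trincr1-ko PDL replicate 1, and Tcf3 passed, at 0.0302 or 0.0300, without WT 2iL replicate 1 or 2. Utf1 passed at 0.0458 without either WT PDL sample and at 0.0408, with a log2 difference of -0.49, without Trincr1-ko PDL replicate 1. The genotype and medium comparisons share samples, so their values are set side by side here and not counted as separate evidence.

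The proportions between the factors shifted along with the levels. There were 4.36 to 4.90 times as many FPKM of Pou5f1 as of Sox2 in the 4 samples in 2iL and 2.24 to 2.71 times as many in the 4 samples in PDL. Pou5f1 made up 59.2% to 61.3% of the summed FPKM of the 8 members in 2iL and 42.7% to 46.6% in PDL, while that sum went from between 1155 and 1184 FPKM down to between 828 and 902 FPKM. The level of Sall4 was 7.91% to 9.16% of that of Pou5f1 in 2iL, 14.4% and 16.2% in WT PDL cells and 22.8% and 23.3% in Trincr1-ko PDL cells.

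The members differed in how far their levels moved at all. The highest group mean was 1.94 times the lowest for Pou5f1, which was more than for 82.0% of the 8538 genes with a mean of at least 5 FPKM, and 1.5 times for Sall4. For Tcf7l1 this ratio was 1.38, for Utf1 1.32, for Rest 1.31 and for Sox2 1.22, near or below the median of 1.39 over those genes. Zfp281 and Tcf3, at 1.14 and 1.13, moved less than most, with 12.0% and 10.3% of genes below them.

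The other genes of each factor's pathway were taken from lists, with the members themselves left out, and are given here for the genotype comparison in PDL unless stated. The background for their counts is the 12.1% of all genes tested that were called there, 6.29% higher and 5.77% lower. The lists were chosen with earlier results of these data known, so their counts cannot be read as an excess. They are also not separate from the ESC markers above, which hold Nanog and Esrrb too. Of 4 OCT4-SOX2 targets 3 were lower in Trincr1-ko PDL cells and none higher, with a median log2 difference of -0.45 against 0.01 over all genes tested. Fgf4, an FGF ligand that ESCs secrete, fell by 0.52, the homeobox factor Nanog by 0.47 and the F-box gene Fbxo15 by 0.36 on the log2 scale (limma adjusted p = 0.00266, 0.00876 and 0.00519). Lefty1, a Nodal antagonist, had a log2 difference of -0.43 that did not pass (adjusted p = 0.109), and in 2iL it had passed at -1.03 (limma adjusted p = 0.0274).

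Of 6 pluripotency genes that TCF7L1 represses, 4 were lower in Trincr1-ko PDL cells and none higher, with a median log2 difference of -0.47. Tfcp2l1, a factor of the naive state, fell by 0.69 on the log2 scale, from a mean of 22.8 to 13.7 FPKM, and the nuclear receptor gene Esrrb by 0.57, from 109 to 73.2 FPKM. Klf2 fell by 0.48 and Nanog, which is in both lists, by 0.47. The limma adjusted p-values of these 4 genes were 0.00363, 0.00333, 0.0102 and 0.00876. In WT cells 5 of the 6 were lower in PDL than in 2iL, where 21.3% of all genes tested were called lower, with Tbx3 at -2.43 and Tfcp2l1 at -2.12, and Klf2 was higher at 0.28. In Trincr1-ko cells all 6 were lower in PDL (20.3% of all genes tested were), Klf2 at -0.29 included, with a median of -1.63 against 0.07 over all genes tested. Among the other LEF/TCF genes and β-catenin (Ctnnb1), 1 of 4 passed in the genotype comparison in PDL. This was Tcf7, which fell by 0.55 on the log2 scale (limma adjusted p = 0.00874).

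Of the 11 NuRD subunits, the corepressor of SALL4 and ZFP281, 2 were higher and 1 lower in Trincr1-ko PDL cells, with a median log2 difference of 0.045. The helicase gene Chd4 was higher by 0.23 and the histone-binding Rbbp7 by 0.20, and the deacetylase Hdac2 fell by 0.22 on the log2 scale (limma adjusted p = 0.0239, 0.0228 and 0.0297). Of 10 subunits of REST corepressor complexes, Rcor2 was higher by 0.29 (limma adjusted p = 0.0274) and Hdac2, which is in both lists, lower, with a median of 0.05.

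Of 13 neuronal genes that REST represses 11 passed the filter on low values. Of these 1 was higher, 1 was lower and 9 did not pass, beside the 12.1% called over all genes, with a median log2 difference of -0.11. Stmn2, which encodes a microtubule regulator of neurons and stood at 75.5 FPKM in WT PDL cells, was higher by 0.35, and Gad1, the GABA-synthesizing enzyme gene, fell by 1.26 on the log2 scale, from 3.2 to 0.76 FPKM (limma adjusted p = 0.00413 and 0.0125). The 2 genes left out by the filter had a mean of at most 0.2 FPKM.

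Of the 6 E protein paralogs and ID inhibitors of TCF3, 3 were higher in Trincr1-ko PDL cells and none lower, and all 3 were ID genes. Id3 rose from a mean of 8.48 to 23.6 FPKM, a log2 difference of 1.37, Id1 from 10.1 to 21.5 FPKM (1.05) and Id2 from 4.74 to 8.69 FPKM (0.77), with limma adjusted p-values of 0.00203, 0.0128 and 0.0498. Neither E protein paralog passed. Of 9 close paralogs of the members 4 were higher and 1 lower. Sox1 (0.81) and Sox3 (0.78), SOX genes of neural progenitors, and Sall2 (0.65) were higher, and Sox15 was lower (-0.85). The limma adjusted p-values of these 4 were 0.00998, 0.0291, 0.0256 and 0.0248. Esrrb, Fgf4, Stmn2 and Id3 passed in all 16 alternatives, Tfcp2l1 and Fbxo15 in 15, Nanog in 13, and Klf2, Tcf7 and Gad1 in 12. The calls of Chd4 and Rbbp7 held in 10, that of Rcor2 in 9 and that of Hdac2 in 8. Of the ID genes and paralogs, Id1 passed in 12, Id2 in 4, Sox1 in 13, Sox15 in 11, Sall2 in 10 and Sox3 in 5. Over these alternatives the number called was 1 to 3 for the OCT4-SOX2 targets, 2 to 4 for the TCF7L1-repressed genes, 0 to 4 for NuRD, 1 to 3 for the E protein list and 0 to 5 for the paralogs.

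**Figure D3:**
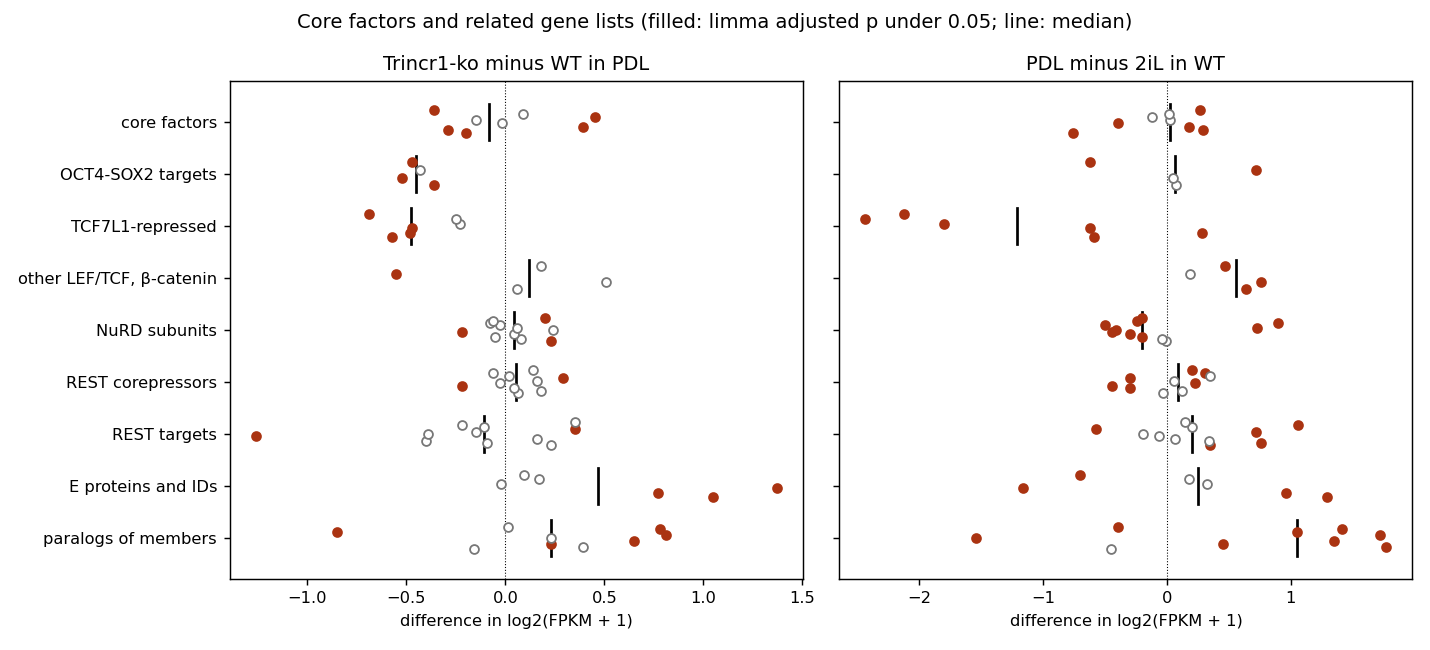
Difference in log2(FPKM + 1) (horizontal axis) of the core factors and of the genes of each related list (vertical axis), for Trincr1-ko against WT in PDL on the left and PDL against 2iL in WT on the right, with 1 point a gene, filled for a limma adjusted p under 0.05, and the median as a line. All 4 OCT4-SOX2 targets and all 6 TCF7L1-repressed genes lie below 0 on the left, 7 of these 10 points filled (Nanog is in both lists), and the core factors lie on both sides.

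For each member, the genes whose log2 levels followed it most closely over the 8 samples were picked by Pearson's r among 8537 other genes with a mean of at least 5 FPKM. These are descriptions over samples that share 2 media and 2 genotypes. Pdxk, Ubxn2a and Tdh, the last a threonine dehydrogenase known for its high level in mouse ESCs, each had r = 0.997 with Pou5f1. Closest to Sox2 were Rfx2 (0.982), Baz2a and Slc25a36 (both 0.976), and closest to Sall4 were Ptpn11 (0.979), Csrnp1 (0.977) and Fat1 (0.976). Utf1 was closest to Tdgf1 (0.967), Zfp281 to Ermp1 (0.976), Tcf7l1 to Ube2m (0.964), Tcf3 to Gripap1 (0.975) and Rest to Snx2 (0.980). Among the members themselves, the positive values of at least 0.76 in size were 0.83 for Pou5f1 with Utf1, 0.83 for Sox2 with Rest, and 0.76 for Sall4 with Tcf7l1 and for Zfp281 with Rest. The negative ones of that size were -0.80 for Pou5f1 with Sall4, -0.79 for Zfp281 with Tcf7l1 and -0.78 for Tcf7l1 with Rest.

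The TRIM71 pulldown asks which transcripts come down with FLAG-TRIM71. The table holds 1 pooled value for the input and 1 for the pulldown (IP), so the values have no replicate check and no test. None of the 8 members met the study's rule for enrichment (more than 2 FPKM in the input, and more than 3 times as much in the scaled IP as in the scaled input), where 5.1% of the 9651 transcripts with such an input did. Tcf3 had the highest fold of the members, 1.65, with unscaled values of 36.0 FPKM (input) and 26.5 FPKM (IP). Sall4 followed at 1.41 (27.5 and 17.2 FPKM). These 2 of 8 members were above 1, where 15.9% of the 9651 transcripts were, and 90.0% and 88.1% of those transcripts had a smaller fold than Tcf3 and Sall4.

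Pou5f1, the most abundant member in the input at 1164.7 FPKM, was 151.7 FPKM in the IP, a fold of 0.292. Rest, at 24.4 and 1.4 FPKM, had a fold of 0.131 and Utf1, at 69.4 and 2.2 FPKM, one of 0.0706. Sox2 (36.3 FPKM in the input), Tcf7l1 (23.1 FPKM) and Zfp281 (2.2 FPKM) were listed at 0 in the IP. So were 46.4% of all 9651 transcripts, 28.4% of the 2750 with an input from 20 to 100 FPKM, the range of Sox2 and Tcf7l1, and 76.3% of the 971 with an input from 2 to 3 FPKM, the range of Zfp281. The median fold of the 2750 was 0.21.

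The fold depends on how the IP is scaled. The deposited IP values had been multiplied by 2.25, whereas a factor of 3.31 would give both libraries the same mean, and Tcf3 rose to 3.33 and Sall4 to 2.83 when the means were taken without the 100 highest transcripts. The input RNA was poly(A)-selected while the IP RNA went directly to cDNA, and that difference and binding cannot be told apart here.

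Of the partners, 2 of the 11 NuRD subunits had a fold above 3, where 5.1% of the 9651 transcripts with an input above 2 FPKM did. These were Gatad2b (3.86, with 3.5 FPKM in the input) and Mbd3 (3.51, with 74.1 FPKM). In the REST corepressor list 1 of 8 with an input above 2 FPKM had such a fold, Cdyl (3.63, with 9.8 FPKM). None of the OCT4-SOX2 targets or TCF7L1-repressed genes did, and their medians were both 0.193. Each fold rests on 1 pooled value per library type, and the lists were chosen with earlier results known, so these counts cannot be read as an excess. In the RNA-seq samples Mbd3, Gatad2b and Cdyl did not pass the genotype test in PDL, with log2 differences of 0.24, -0.05 and 0.06.

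**Figure D4:**
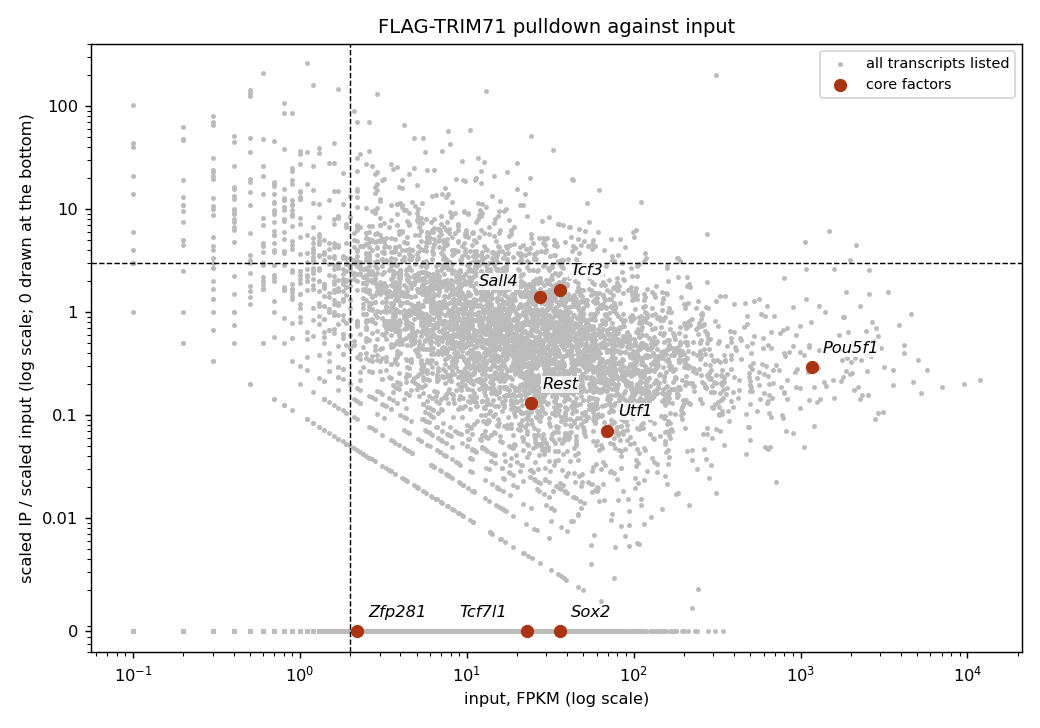
Fold of scaled IP over scaled input (vertical axis, log scale, with values of 0 drawn at the bottom) against input FPKM (horizontal axis, log scale) for all transcripts with an input above 0 in grey and the core factors in red. Dashed lines mark the study's limits of 3 and 2, and all 8 core factors lie below the upper limit, with Tcf3 (1.65) and Sall4 (1.41) highest and Sox2, Tcf7l1 and Zfp281 at 0.

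The RNA-seq table places the members, all protein-coding, at 17:35506018-35510772 (Pou5f1), 3:34650405-34652461 (Sox2), 2:168748332-168767943 (Sall4), 7:139943789-139945112 (Utf1), 1:136624901-136630053 (Zfp281), 6:72626378-72789254 (Tcf7l1), 10:80409514-80433647 (Tcf3) and 5:77265491-77286432 (Rest) in GRCm38. By the GENCODE models of NCBIM37 their longest coding transcripts run from 1 exon (Sox2) to 19 exons (Tcf3) and from 1224 bases (Utf1) to 7004 bases (Rest). Annotated genes overlap Pou5f1 (Gm19553), Sox2 (Sox2ot), Sall4 (Gm14261), Tcf7l1 (Gm15401 and Gm15402) and Rest (Mir5098), and reads of such a pair cannot be told apart without strand, but the highest level of any of these genes was 0.908 FPKM.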

How the data were processed

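Processing by the authors: RNA-seq reads were aligned with STAR 2.5.0 and FPKM values per gene were made with Cufflinks 2.2.1, per the labels and methods, which name mm9, while the coordinates in the deposited table are those of GRCm38. The deposited pulldown table holds FPKM of input and IP, the same values scaled by the authors, and a column with the authors' own enrichment, which was not used. The score columns of scaled values, as deposited, were used only as a ratio. IP samples of the empty control cells were not analysed here.

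One entry was kept per gene identifier (41204 genes). Values were tested as log2(FPKM + 1) with limma 3.58.1 in R 4.3.3, trend on, with the 4 groups in 1 fit (4 residual degrees of freedom), two-sided, over the 15430 genes with a mean above 0.2 FPKM. A log2 difference on this scale understates the change of low genes. Replicates are biological by the design text, and 2 a group limit the precision. Library depth was estimated from low values (78.4% to 81.1% of 756 to 856 genes came out within 0.12 of a whole fragment, against 24% for random values), and counting errors cover counting only. On simulated data of 15430 genes for the genotype effect in PDL, 99 of 100 planted log2 changes of 1 and 60 of 100 of 0.5 were recovered, with 15 false calls. The noise was drawn from a normal distribution and the 200 changed genes all had a level above about 5 FPKM. The core factors differed by at most 0.45 in PDL, less than any planted change, so these rates do not cover them.

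Alternatives were another pseudocount (0.1), other filters, TMM and quantile scaling, no trend, the replicate block, leaving out each sample and fitting only the 4 samples compared. The members and gene lists were chosen with earlier results of these data known. All members are named, up to 4 genes a list that passed the test by the size of their change, and other list genes named without passing were chosen with their values in view. The 3 closest genes by Pearson's r were taken as likeness. Promoter sequences and identifiers were matched by symbol.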

Additional observations from a re-analysis of the deposited data

Results flagged for a closer look

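No core factor had an effect of genotype that differed between the media by the test of that difference (the interaction in limma). Of the 76 genes tested from the lists of targets, partners and markers, 9 did, beside 1.81% of all genes tested. The lists were chosen with earlier results of these data known, so the 9 cannot be read as an excess. Values here are the log2 effect of the deletion in PDL minus that in 2iL. The effect was lower in PDL for the TCF7L1-repressed genes Tfcp2l1 (-0.75, adjusted p = 0.0277) and Esrrb (-0.67, adjusted p = 0.0267), for the LEF/TCF gene Tcf7 (-0.64, adjusted p = 0.0475) and for the trophoblast marker Cdx2 (-1.11, adjusted p = 0.043). For Cdx2 the difference lay in 2iL, where the deletion raised it from a mean of 0.746 to 3.02 FPKM (log2 difference 1.19, limma adjusted p = 0.012). In PDL its means were 0.073 FPKM in WT and 0.138 FPKM in Trincr1-ko cells (0.085, not called). The effect was higher in PDL for Id2 (1.58, adjusted p = 0.0456) and Id3 (1.46, adjusted p = 0.02), for the Sox2 paralog Sox1 (1.06, adjusted p = 0.0384), for the REST target Stmn2 (0.36, adjusted p = 0.0368) and for the fibroblast marker Col1a1 (1.11, adjusted p = 0.028). Each of these rests on 2 samples a group, and none passed in all alternatives: Id3 passed in 9 of 15, Esrrb in 7, Stmn2 in 5, Sox1 and Tfcp2l1 in 4, Id2 and Tcf7 in 3, and Col1a1 in 4 and Cdx2 in 2 of the 14 in which they were tested.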

How the results depend on the processing

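The number of core factors called was the least stable for genotype in PDL, where 5 passed. It was 3 with no filter, with no variance trend and with the replicate block, 1 when only the 4 samples compared were fitted, and 1 to 5 when single samples were left out. For medium in WT cells, where 5 passed, it was 3 with no variance trend and with the 4 samples only, and 2 to 5 when single samples were left out. For medium in Trincr1-ko cells, where 3 passed, it was 2 to 4 when single samples were left out and 3 to 4 in the other settings. For genotype in 2iL and for the interaction it was 0 in every setting run. No called difference of a core factor changed its sign. The count of core factors above 3-fold in the pulldown was 1 (Tcf3) when the means were taken without the 100 highest transcripts and 0 in the other scalings.

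The replicate numbers did not pair the samples: the deviations of same-numbered samples correlated between -0.0539 and 0.00634 over the pairs of groups. With the replicate block, Pou5f1 and Sox2 both had an adjusted p of 0.051 for genotype in PDL, and Utf1 0.0603 for medium in WT cells, and the block changed no other call of a core factor. Over all genes the count called for genotype in PDL was 1861 and between 316 and 1949 in the alternatives, for genotype in 2iL 186 and between 0 and 227, for the interaction 279 and between 3 and 357, and for medium in WT cells 8048 and between 6473 and 8111. Quantile scaling moved the share of calls that were higher from 59.2% to 49.1% for medium in WT cells and from 59.3% to 48.2% in Trincr1-ko cells, and the median log2 difference of all genes from 0.07 to -0.04 in the latter. With TMM scaling, Sall4 lost its call for medium in WT cells (0.09, adjusted p = 0.221), as did Tcf7l1 in Trincr1-ko cells (0.10, adjusted p = 0.137), while Tcf7l1 passed in WT cells (-0.21, adjusted p = 0.01) and Utf1 in Trincr1-ko cells (-0.44, adjusted p = 0.0254). The cause was not tested. Depth limits the core factors little, at an estimated 817 fragments or more a sample.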
